A study of Mus musculus with 2 samples.

Results

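Autophagy is the route by which a cell encloses part of its own cytoplasm in a double membrane, the autophagosome, and delivers it to the lysosome for breakdown. The genes described here are 36 members of its core machinery, taken by gene symbol from a named list. The rule applies no measured value, although the list was drawn up with earlier results of these data known. All 36 were found, each under 1 symbol, among the 55536 annotated genes of the tables. On mm10 they lie on 18 chromosomes, with 6 of them, Ulk2, Becn1, Wipi1, Gabarap, Sqstm1 and Nbr1, on chromosome 11. The samples are total RNA from the hippocampus ("layer of hippocampus" in the labels) of female B6CASTF1/J mice aged 2 months, from The Jackson Laboratory. This strain is the F1 cross of C57BL/6J, a standard inbred strain, with CAST/EiJ, an inbred strain of wild origin. From 300 ng of RNA each, 2 libraries were made. They form 1 group with no treatment, and the labels number them biological replicates 1 and 2. Each has a biosample of its own, but both carry the same donor record, so the spread between them may in part be technical.

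Autophagosomes are built in steps, and the members are ordered here by step. The ULK kinase complex starts the process, a complex around the lipid kinase Pik3c3 marks the site with phosphatidylinositol 3-phosphate, and Atg9a, the Atg2 proteins and the Wipi proteins supply and bind membrane. Conjugation enzymes then attach the small proteins of the LC3 and GABARAP families to the lipid phosphatidylethanolamine, cargo receptors link these proteins to what is to be degraded, and a tether joins the closed autophagosome to the late endosome or lysosome. Neurons form autophagosomes largely in the axon, and mice that lack Atg5 or Atg7 in neural cells develop neurodegeneration.

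With 1 group there is no comparison of conditions. The questions the data can answer are how high each step of the machinery stands, how paralogues divide each step, which transcripts carry each gene, and how far the libraries and the deposited quantifications differ. Levels are in TPM, transcripts per 1000000 transcripts, which are per length and can be set beside each other between genes, and they are given for replicate 1 and then replicate 2. The RNA of both parental strains was quantified against mm10, and the effect of this on the levels was not tested. Each library was quantified in 2 ways by the authors. The tables in the layout of RSEM, called the first quantification, are used unless the second, in the layout of kallisto, is named. Errors are SD over the 2 libraries. No p-value was computed, since 1 library against 1 library allows none.

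Annotated genes held 29490900 and 30691917 expected counts in replicates 1 and 2, and the members held 73005 and 75860 of them, or 0.248% and 0.247%. Per member the expected count ranged from 87.7 to 10182. The counts of the libraries differed by more than counting error, with a chi-square of 3.59 per degree of freedom over 14527 genes. They are thus not the same counts deposited in duplicate. The chi-square covers counting error only and does not tell separate animals, separate preparations and repeated sequencing apart. Markers of neurons were high, with summed TPM of 2486 and 2426 over 6 of 6 detected genes, and 5 of 5 markers of hippocampal fields were detected. Markers of blood were higher in replicate 2, with 580.9 against 326.7 summed TPM and 3 of 3 genes at least 25% higher there. Markers of choroid plexus were lower in replicate 2, with 70.2 against 126.6 summed TPM and 1 of 3 genes, Ttr, apart by that margin among genes at 1 CPM or more. Markers of endothelium had 37.8 summed TPM in replicate 2 and 42.4 in replicate 1. Of these 3 genes 1, Cldn5, was apart, with 484.0 expected counts in replicate 2 and 607.0 in replicate 1. The log2 ratio of replicate 2 over replicate 1 was -0.17 for Flt1 and 0.03 for Pecam1, which thus did not fall. CPM are counts scaled to a library total of 1000000. Markers of oligodendrocytes had 894.1 summed TPM in replicate 2 and 804.7 in replicate 1, and 4 of 4 were higher in replicate 2 by scaled counts. For astrocytes the sums were 1215 and 1161, with 3 of 4 higher, and for oligodendrocyte precursors 84.1 and 77.6, with 1 of 3 higher. For microglia they were 74.3 and 79.9, with 0 of 4 higher. In each of these lists 0 genes were apart. In such bulk tissue, fewer cells of a type and less RNA per cell cannot be told apart.

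All 36 members were detected at 1 TPM or more in both libraries, a level reached by 58.0% of 22015 protein-coding genes. Their median level was 20.2 TPM in replicate 1 and 20.3 TPM in replicate 2 (20.2 ± 0.0566), beside 14.6 and 14.5 TPM over the 12773 detected protein-coding genes. Of the members, 28 stood above the median detected gene. The levels spanned 59.0-fold, from 4.49 ± 0.863 TPM for Atg4a to 265.0 ± 1.83 TPM for Gabarapl1. There were 8 members over 60 TPM, 21 between 10 and 60 TPM and 7 under 10 TPM. The 8 highest were the 5 LC3 and GABARAP genes, the cargo receptors Sqstm1 and Nbr1, and Becn1. In the order of mean levels, the libraries of 18 of 35 pairs of neighbours did not overlap. The neighbours whose libraries overlapped fell into runs: Gabarap, Map1lc3a, Nbr1, Becn1 and Gabarapl2, then Wipi2 and Calcoco1, then Atg4b, Atg13, Ulk1, Ulk2 and Atg16l1, and then Atg101 and Ambra1. Lower in the order the runs were Pik3c3, Pik3r4 and Atg2b, then Atg3, Atg12, Atg4c and Atg4d, then Atg5 and Atg14, and last Optn and Atg10.

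**Figure D1:**
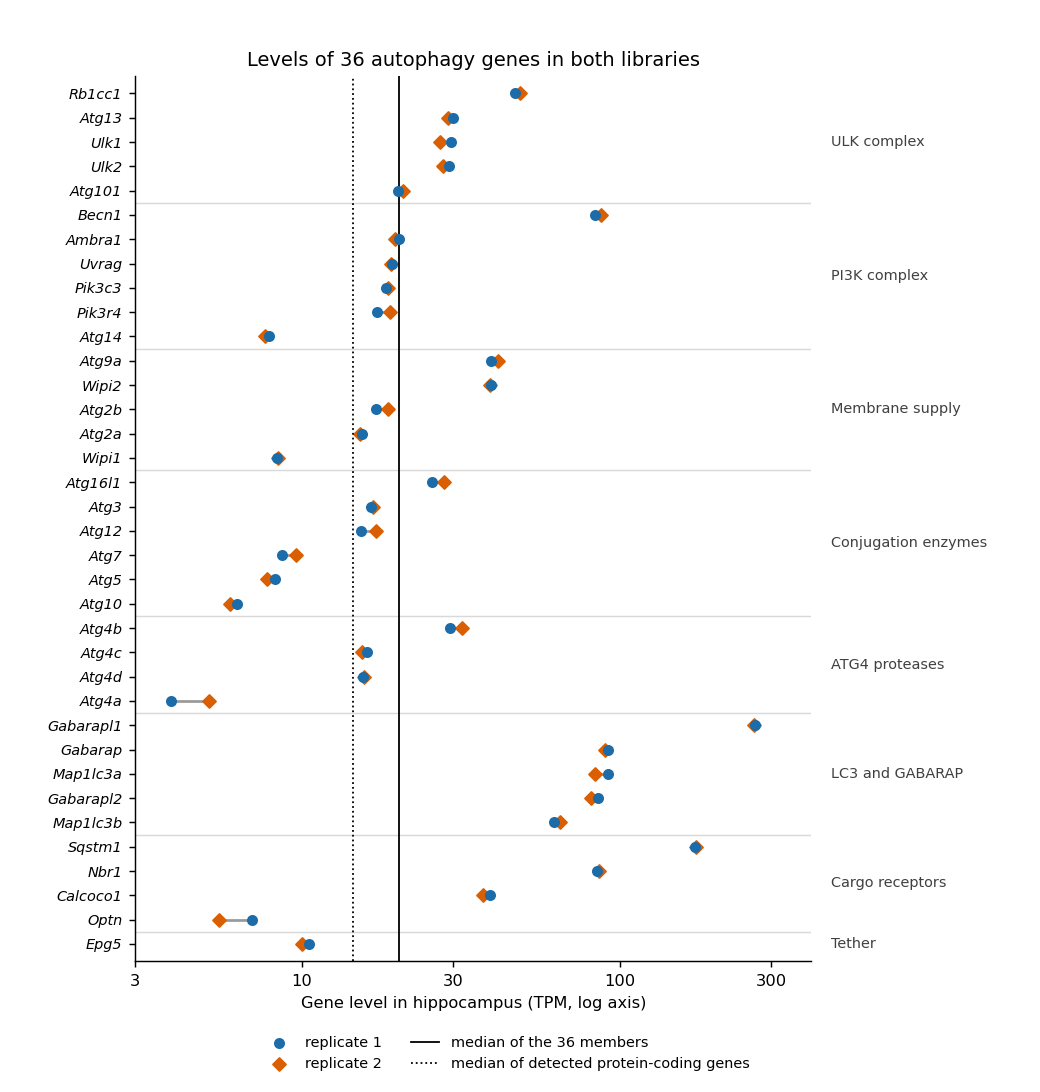
Level of each member in TPM on a log axis, with a circle for replicate 1 and a diamond for replicate 2, grouped by step; the solid line is the median of the 36 members and the dotted line that of detected protein-coding genes. The 5 LC3 and GABARAP genes lie to the right of both lines, and Atg4a and Optn show the widest gaps between the libraries.

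The ULK complex phosphorylates its targets when nutrients are short. Its scaffold Rb1cc1, also called FIP200, was the highest of the 5 genes at 46.8 and 48.8 TPM. Atg13, the adaptor that links kinase and scaffold, had 29.9 and 28.9 TPM. The kinases had 29.6 and 27.3 TPM for Ulk1 and 29.1 and 27.8 TPM for Ulk2. These 3 genes overlapped: the log2 ratio of Ulk1 over Ulk2 was -0.0005 ± 0.04, and that of Atg13 over Ulk1 was 0.05 ± 0.04. Atg101, which stabilises Atg13, was lower at 20.1 and 20.8 TPM and did not overlap with them.

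In the lipid kinase complex, Becn1 had the highest gene level, while its place by protein-coding transcripts alone depended on the quantification. Becn1 encodes Beclin 1, the regulatory subunit to which inhibitors and activators bind, and had 83.6 and 87.2 TPM. Pik3r4, the pseudokinase known as VPS15 that anchors the catalytic subunit, had 17.2 and 18.9 TPM. Pik3c3, the catalytic subunit also known as VPS34, had 18.5 and 18.6 TPM. Becn1 was 4.60-fold higher than Pik3c3, a log2 ratio of 2.20 ± 0.04. On protein-coding transcripts alone, Becn1 had 14.4 and 13.3 TPM and Pik3c3 had 17.1 and 18.6 TPM in the first quantification. In the second, scaled to protein-coding genes, the order turned, with 57.9 and 59.96 TPM for Becn1 and 41.1 and 42.7 TPM for Pik3c3. The values of the first are as deposited, without that scaling, so only the order within a quantification can be compared here. Most coding TPM of Becn1 was on short models. In the second, Becn1-212, of 684 bases with 332 coding bases, held 20.8% and 21.7% of the gene's TPM. In the first, Becn1-204, of 375 bases, held 7.93% and 8.92% and Becn1-212 held 5.28% and 5.53%. Becn1-205, with 1344 coding bases, held under 1% in both. The coding values of Becn1 are thus no measure of RNA with its longest reading frame. At the gene level Pik3r4 and Pik3c3 overlapped. Alternative subunits direct the kinase to different membranes. Atg14, which sends it to the site of autophagosome formation, had 7.88 and 7.68 TPM. Uvrag, which sends it to endosomes, had 19.3 and 19.1 TPM. The gene level of Atg14 was lower in both libraries, with a log2 ratio over Uvrag of -1.30 ± 0.02. On protein-coding transcripts of the first quantification the values lay close, with 7.18 and 6.90 TPM for Atg14 and 7.28 and 7.04 TPM for Uvrag. Ambra1, a scaffold that binds Becn1 and promotes its activity, had 20.3 and 19.7 TPM.

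Among the membrane genes, Atg9a and Wipi2 led. Atg9a, a scramblase carried by small vesicles, had 39.4 and 41.3 TPM, and of its words of 100 bases, the read length, 27.8% also occur on the same strand in the overlapping transcript Gm29253, which had 0.12 and 0.24 TPM. The Atg2 proteins transfer lipids into the growing membrane, and Atg2b had 17.1 and 18.7 TPM and Atg2a 15.5 and 15.2 TPM. Atg2b was above Atg2a in both libraries, but the log2 ratio of 0.22 ± 0.11 was not past 3 SD. The Wipi proteins bind phosphatidylinositol 3-phosphate, and Wipi2 recruits Atg16l1. Wipi2 had 39.3 and 39.0 TPM and Wipi1 had 8.36 and 8.45 TPM, so Wipi2 was 4.66-fold higher, a log2 ratio of 2.22 ± 0.02.

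The conjugation enzymes had the lowest median of the groups with more than 1 gene at 12.6 ± 0.817 TPM over 6 genes. Atg16l1, which places the conjugating complex on the membrane, was the highest at 25.8 and 28.1 TPM. Atg12 and Atg5, which are joined covalently to each other, had 15.4 and 17.1 TPM and 8.24 and 7.80 TPM. Atg12 was 2.02-fold above Atg5, a log2 ratio of 1.02 ± 0.16. The activating enzyme Atg7 serves both conjugation reactions and had 8.69 and 9.63 TPM. Of the enzymes that take over from it, Atg10 passes on Atg12 and had 6.27 and 5.96 TPM, and Atg3 passes on LC3 and GABARAP proteins and had 16.6 and 16.8 TPM. Both Atg7 and Atg10 stood below Atg3, with log2 ratios of -0.87 ± 0.09 and -1.45 ± 0.06.

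The ATG4 proteases trim the LC3 and GABARAP proteins before conjugation and release them from membrane afterwards. Atg4b, the most active of them in biochemical assays, had 29.3 and 31.9 TPM. Atg4c had 16.02 and 15.50 TPM and Atg4d had 15.56 and 15.72 TPM. Atg4a, on chromosome X, had the lowest gene level of the 36 members at 3.88 and 5.10 TPM. Atg4b exceeded Atg4a 6.87-fold and Atg4d 1.95-fold, with log2 ratios of 2.78 ± 0.19 and 0.97 ± 0.08. In the second quantification the ratio over Atg4a was 14.5-fold, a log2 ratio of 3.86 ± 0.11. The value of Atg4a rests on 87.7 and 95.1 expected counts. Of its 100-base words, 34.7% also occur in the copy Atg4a-ps, which had 0.44 and 0.74 TPM, so the level of Atg4a is uncertain. On protein-coding transcripts of the first quantification as deposited, Atg4d had 0.95 and 1.41 TPM and Atg4b 20.6 and 23.1 TPM. The coding mean was 1.18 TPM for Atg4d and 1.37 TPM for Atg4a, with Atg4d lower in replicate 1 and higher in replicate 2. In the second, scaled to protein-coding genes, Atg4d was lower in both, with 2.05 and 2.63 TPM against 3.54 and 3.06 TPM for Atg4a.

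The LC3 and GABARAP genes together held 39.9% and 39.0% of the members' TPM. Their products are the ubiquitin-like proteins that coat the autophagosome. Gabarapl1 was the highest of the 36 genes, at 266.3 and 263.7 TPM and 9820 and 10182 expected counts. It held 44.5% and 45.2% of the TPM of the family and stood at percentile 99.3 of protein-coding genes. Gabarap had 92.2 and 89.6 TPM, Map1lc3a had 91.96 and 83.92 TPM, and Gabarapl2 had 85.4 and 81.2 TPM. Of these 3 genes Map1lc3a overlapped with both others, and Gabarap was above Gabarapl2 in both libraries. Gabarapl1 was 2.92-fold above Gabarap, 3.02-fold above Map1lc3a and 3.18-fold above Gabarapl2. Map1lc3b, whose lipidated protein is the usual marker of autophagosomes in immunoblots, had 62.3 and 64.8 TPM, the lowest gene level of the family in the first quantification. In the second, scaled to protein-coding genes, Map1lc3b had 243.4 and 235.0 TPM and Gabarapl2 was lowest with 182.0 and 172.0 TPM. With the same scaling, the first gave 153.9 and 160.6 TPM for Map1lc3b and 211.0 and 201.2 TPM for Gabarapl2. On protein-coding transcripts of the first quantification as deposited, Map1lc3b had 60.8 and 63.0 TPM, above Gabarapl2 with 39.9 and 36.7 TPM and Map1lc3a with 34.3 and 37.0 TPM. Map1lc3a was above Map1lc3b by a log2 ratio of 0.47 ± 0.13, but in the second quantification the ratio was -0.13 ± 0.03, so the order of these genes depends on which deposited quantification is read. Map1lc3b shares 2.87% of its 100-base words with 4 other genes. Of these the pseudogene Gm6055, which shares the most words, had 18.2 and 11.5 TPM. Gabarapl2 shares 6.80% of its words with 3 other genes. Among them the pseudogene Gm3724, which shares the most words, had 0.49 and 0.98 TPM.

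The cargo receptors ranged from 6.24 to 172.8 TPM. Sqstm1, also called p62, carries ubiquitinated proteins and had 172.0 and 173.5 TPM, or 56.8% and 57.3% of the TPM of the 4 receptors. Nbr1, which shares domains with Sqstm1, had 85.1 and 86.4 TPM. Sqstm1 was 2.02-fold above Nbr1, a log2 ratio of 1.01 ± 0.01. Optn, a ubiquitin-binding receptor for mitochondria and bacteria whose human gene is mutated in some amyotrophic lateral sclerosis and glaucoma, had 6.98 and 5.50 TPM. Calcoco1, a receptor for parts of the endoplasmic reticulum, had 39.0 and 37.3 TPM. The log2 ratio of Optn over Calcoco1 was -2.62 ± 0.20, and -2.03 ± 0.20 in the second quantification. Epg5, the tether between autophagosome and lysosome, had 10.5 and 10.1 TPM.

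**Figure D2:**
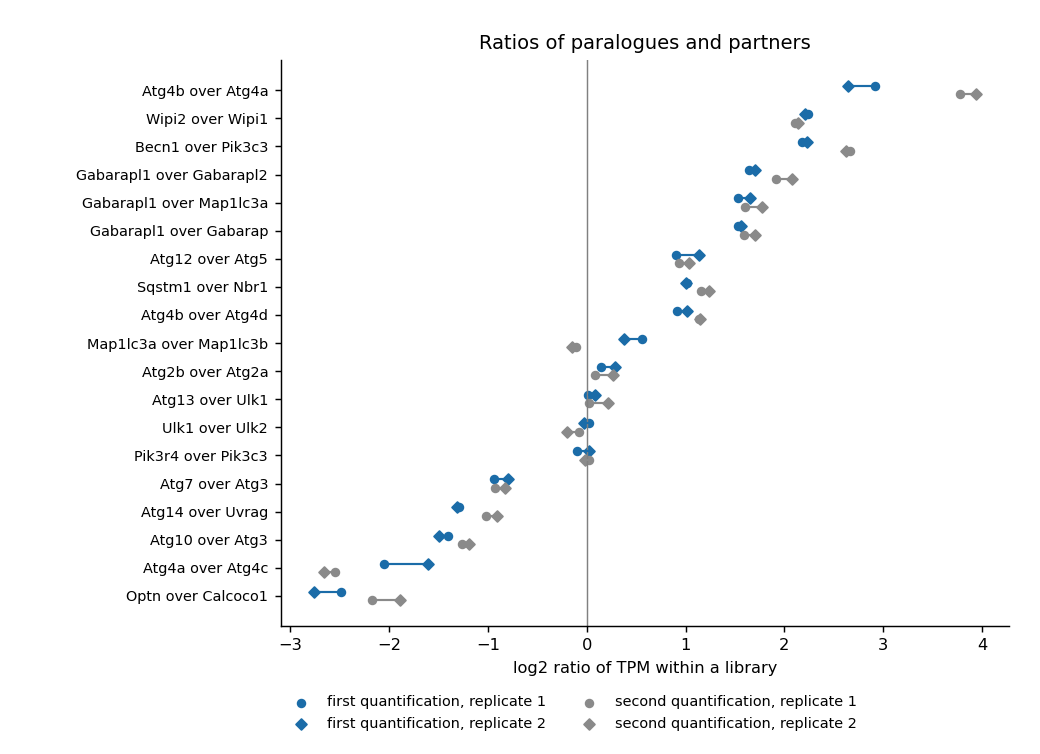
Log2 ratio of TPM within a library for 19 pairs of paralogues or partners of a complex, in the first quantification (blue) and the second (grey), with circles for replicate 1 and diamonds for replicate 2. The pair Map1lc3a over Map1lc3b lies at 0.47 in the first quantification and at -0.13 in the second, on the other side of 0.

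Of the 19 pairs, 15 were larger than the spread, past 3 SD and with 1 sign in both libraries, and the second quantification also gave 15. No such share was computed for other pairs of genes, so these counts only describe the pairs listed. Map1lc3a over Map1lc3b was past the limit in both quantifications with opposite signs, so passing it does not settle the order of a pair. The pairs not past that limit were Ulk1 over Ulk2, Atg2b over Atg2a, Pik3r4 over Pik3c3 and Atg13 over Ulk1. The sign of the mean ratio changed between the quantifications for 2 pairs, Map1lc3a over Map1lc3b and Pik3r4 over Pik3c3, and for Pik3r4 over Pik3c3 the ratios were within 3 SD of 0 in both.

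The transcripts that carry each gene were then read from the transcript tables. The 36 genes have 245 annotated transcripts, of which 113 are annotated as protein coding, with 2 to 21 per gene. The other classes are retained introns, targets of nonsense-mediated decay (a pathway that degrades RNA with a premature stop) and processed transcripts without an open reading frame, with 1 further transcript of Nbr1 in the class of miscellaneous RNA, listed at 0 TPM. The median member had 82.2% and 82.2% of its TPM on protein-coding transcripts, against 87.9% and 87.4% for the median detected protein-coding gene. Among genes with an annotated non-coding transcript, the medians were 80.8% and 78.4% for 34 members and 81.1% and 80.3% for 10102 genes. Counts are not divided by length, and the share by expected counts was higher, at 92.8% and 93.9% for the median member. At least 90% of TPM was on coding transcripts in 12 members, among them Gabarapl1, Atg101, Wipi1, Atg5, Epg5 and Map1lc3b, beside 45.0% of 12773 detected protein-coding genes. Genes without an annotated non-coding transcript, such as Gabarapl1 and Atg101, pass this limit by annotation alone. Of the 12773 genes only 10102 have such a transcript, while 34 of 36 members do. The count of members and the 45.0% are thus not like for like, and no deficit of the members can be read from them.

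**Figure D3:**
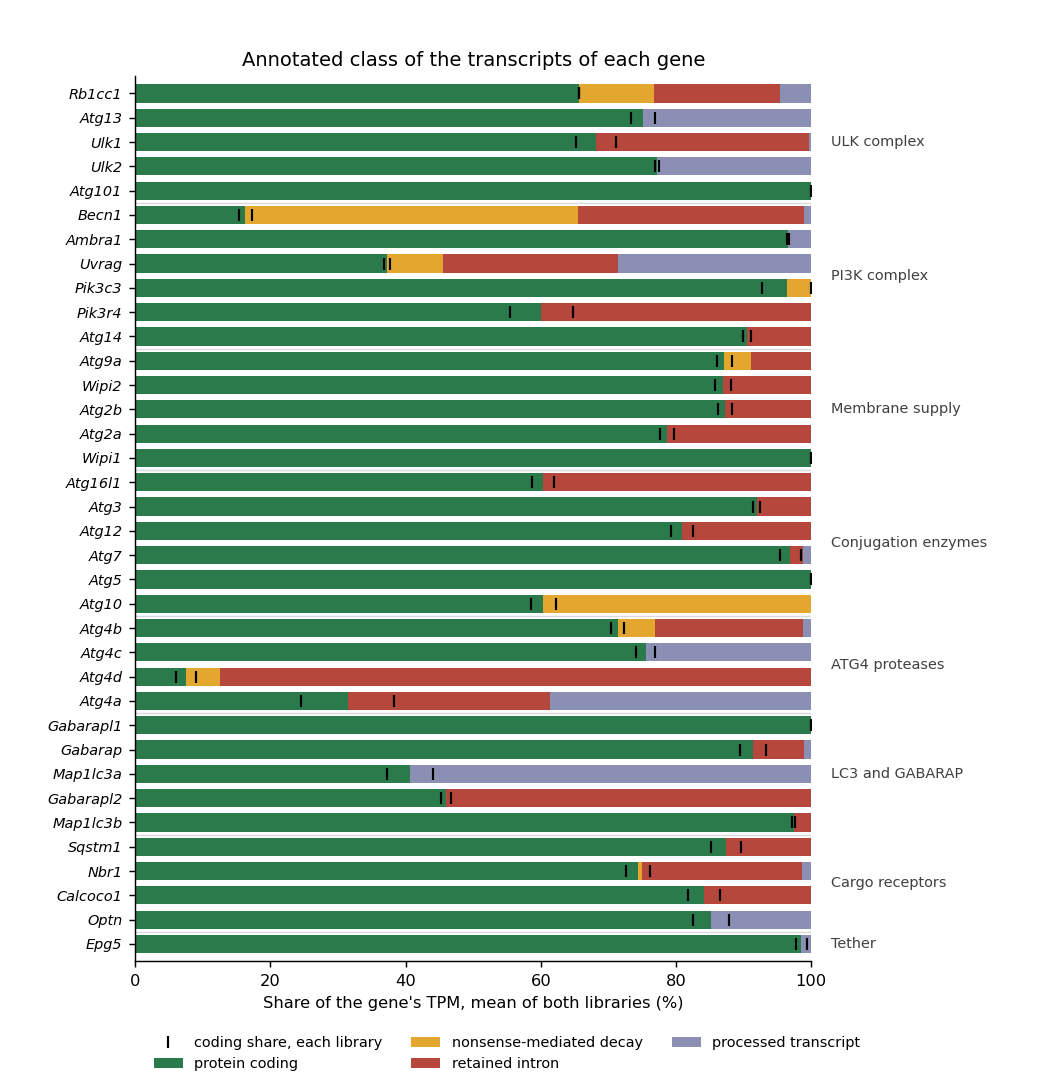
Share of each member's TPM by annotated class of transcript, as the mean of both libraries in the first quantification; black ticks mark the protein-coding share in each library. Atg4d and Becn1 have the shortest coding bars, 7.54% and 16.3%, and Gabarapl1, Atg101, Wipi1 and Atg5 show no other class.

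Under 50% of TPM was on protein-coding transcripts in 6 of 36 members, where 11.1% of detected protein-coding genes had such a share. In the second quantification it was also 6, where 13.5% of genes had such a share. The genes in both sets were Becn1, Uvrag, Atg4d and Gabarapl2. The leading transcript, the one with the highest mean share, was not annotated as protein coding in 5 members, Becn1, Atg4a, Atg4d, Map1lc3a and Gabarapl2, where 7.81% of genes had such a leading transcript. In the second quantification it was 4 members, Becn1, Atg10, Atg4d and Gabarapl2, against 9.86% of genes. All these percentages are over 12773 detected protein-coding genes, of which 10102 have an annotated non-coding transcript, as 34 of 36 members do. Genes without one cannot be counted here, so the percentages are low as a measure for the members. Per library, the leading transcript was the same in both libraries for 33 of 36 members, beside 88.8% of 11578 detected protein-coding genes with 2 or more transcripts.

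Gabarapl2 had like shares in both quantifications. Its leading transcript Gabarapl2-203, annotated as a retained intron, held 51.8% and 53.3% of the gene's TPM, with 44.3 and 43.3 TPM. The coding transcript Gabarapl2-201 held 46.7% and 45.2%. The second quantification gave 52.0% and 53.1% for Gabarapl2-203, within the spread of the first. By expected counts the longer Gabarapl2-201 led, with 1367 and 1308 counts against 625.0 and 636.2 for Gabarapl2-203. The sequence that marks Gabarapl2-203 is the 92 bases before the second exon of Gabarapl2-201, at chr8:111941068-111941159 on the plus strand of mm10, shown with the intron part in capitals and the first bases of that exon in lower case. The capitals end in AG, the usual end of an intron.
Gabarapl2-203: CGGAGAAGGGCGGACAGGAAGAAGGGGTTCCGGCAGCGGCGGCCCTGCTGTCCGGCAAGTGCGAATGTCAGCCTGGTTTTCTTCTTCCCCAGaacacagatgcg

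Atg4d had the lowest coding share. Its coding transcript Atg4d-201 held 6.11% and 8.96% of TPM, with 121.0 and 185.9 expected counts. The retained-intron transcripts Atg4d-203 and Atg4d-205 held 52.1% and 43.4% and 26.4% and 29.3%. The models of Atg4d-201 and Atg4d-203 differ at their ends too, with a last exon of 4519 bases in Atg4d-201 and of 492 bases in Atg4d-203. Kri1, on the opposite strand, shares 1405 exonic bases with Atg4d and had 21.9 and 17.6 TPM, and no label or header says whether reads were counted by strand. Atg4d-203 keeps a whole intron between coding exons of Atg4d-201, the 77 bases at chr9:21268528-21268604 on the plus strand, in capitals below with 12 bases of exon on either side. The intron begins with GT and ends with AG. Of the TPM of the 3 transcripts that span this place, 61.6% and 53.1% was on the one that keeps it, and 55.6% and 49.1% in the second quantification.
Atg4d-203: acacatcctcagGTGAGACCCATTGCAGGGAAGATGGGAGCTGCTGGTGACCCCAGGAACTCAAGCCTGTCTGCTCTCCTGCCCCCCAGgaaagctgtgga

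Becn1, the highest gene of the lipid kinase complex, had 17.3% and 15.3% of its TPM on coding transcripts, which is 13.9 TPM on average. Its leading transcript Becn1-201, annotated as a target of nonsense-mediated decay, held 37.6% and 34.3%, and the retained-intron transcript Becn1-211, of 487 bases, held 22.7% and 24.6%. In the second quantification Becn1-211 led, with 27.4% and 27.1% against 25.3% and 23.9% for Becn1-201. The coding transcript Becn1-205, of 4365 bases, had 0.73 and 0.74 TPM, and its model has a last exon of 3030 bases where that of Becn1-201 has 720. Cntd1, on the opposite strand, shares 3104 exonic bases with Becn1 and had 0.31 and 0.22 TPM. Among other differences, Becn1-201 holds a segment of 64 bases that Becn1-205 lacks, at chr11:101296194-101296257 on the minus strand, whose last 3 bases are the annotated stop codon of Becn1-201. It is shown in capitals with 12 bases on either side. Of the TPM of the transcripts that span it, 59.3% and 58.5% was on the 4 with the segment and the rest on the 7 without it. The second quantification gave 44.9% and 42.6%.
Becn1-201: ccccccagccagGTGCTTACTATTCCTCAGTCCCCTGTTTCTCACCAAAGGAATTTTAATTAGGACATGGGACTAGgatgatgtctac

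Atg10 divided between 2 main forms. The coding transcript Atg10-201 held 62.2% and 58.6% of TPM, and Atg10-203, a target of nonsense-mediated decay, held 37.8% and 41.4%. In the second quantification the order turned, with 57.4% and 59.5% on Atg10-203. Atg10-203 lacks an exon of 139 bases, a length that is not a multiple of 3, at chr13:91040850-91040988 on the minus strand. The exon is shown in capitals as it stands in Atg10-201. These shares rest on 168.0 and 163.0 expected counts for the gene.
Atg10-201: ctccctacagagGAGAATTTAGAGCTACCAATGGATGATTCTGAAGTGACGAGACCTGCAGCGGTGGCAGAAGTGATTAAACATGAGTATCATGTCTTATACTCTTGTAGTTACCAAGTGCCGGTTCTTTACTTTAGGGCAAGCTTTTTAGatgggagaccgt

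Atg16l1 has a cassette exon of 48 bases, a multiple of 3, which the leading transcript Atg16l1-203 includes and the coding transcript Atg16l1-201 skips. The exon lies at chr1:87775081-87775128 on the plus strand and is shown in capitals. Of the TPM of the 6 transcripts that span it, 77.8% and 92.3% was on the 3 that include it, and 66.5% and 68.3% in the second quantification. Both quantifications put most of the TPM on the form with the exon, and in the first the libraries differed by an SD of 10.3 percentage points.
Atg16l1-203: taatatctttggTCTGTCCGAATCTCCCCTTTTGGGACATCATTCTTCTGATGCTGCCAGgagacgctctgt

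For further members too the leading transcript depended on the quantification. Over all members it was the same in both for 24 of 36 members. It differed for 22.7% of 12773 detected protein-coding genes, of which 11578 have 2 or more transcripts, as all members do. Genes with 1 transcript cannot differ. The processed transcript Map1lc3a-203, of 826 bases, held 59.0% and 56.0% of TPM in the first quantification and 8.09% and 10.5% in the second, where the coding Map1lc3a-201 held 91.9% and 89.5%. For Map1lc3b the coding Map1lc3b-201 held 72.3% and 74.0% in the first, while the shorter coding Map1lc3b-203 held 59.8% and 58.6% in the second. Atg9a, Atg14 and Atg7 moved between coding transcripts. Atg9a-201 held 43.5% and 48.4% in the first quantification and 0.333% and 0.810% in the second, and Atg14-201 held 87.8% and 85.2% in the first and 0.003% and 18.6% in the second. Atg4a-203, the leading transcript of Atg4a, rests on 7.57 and 11.1 expected counts, and Atg4a-201 led in the second quantification. In Uvrag, the coding Uvrag-201 held 37.7% and 36.9%, and Uvrag-204, a processed transcript of 366 bases, held 21.3% and 28.7% in the first quantification and 0% in the second.

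**Figure D4:**
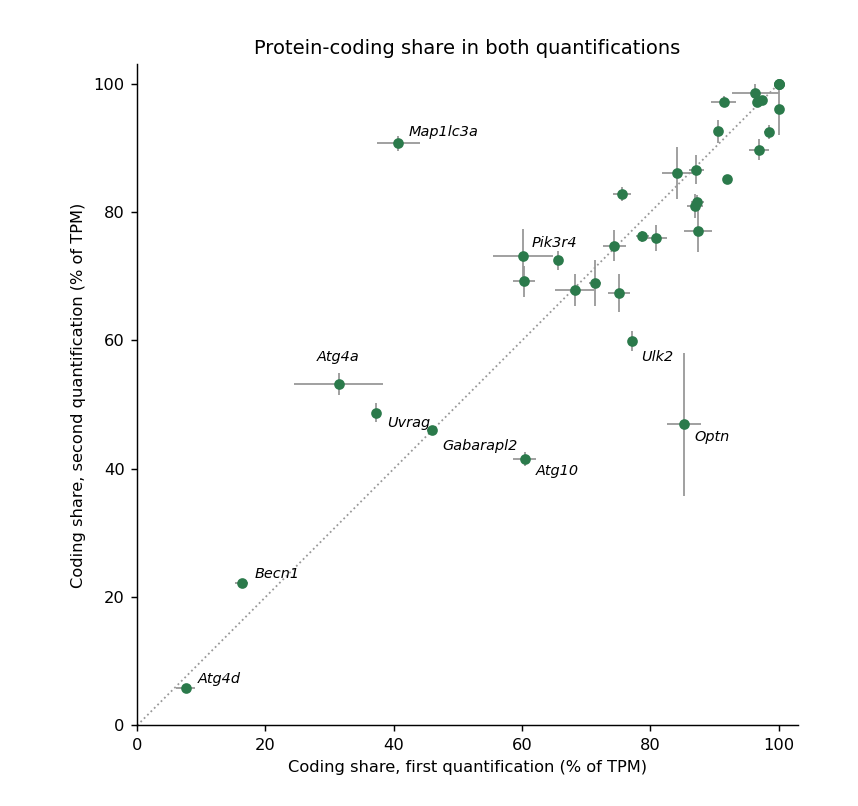
Protein-coding share of each member's TPM in the first quantification (x axis) and the second (y axis), as means with bars that span both libraries; the dotted line marks equal shares. Map1lc3a lies far above it, at 40.7% and 90.7%, and Optn lies far below it, at 85.2% and 46.9%.

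Gene levels were set beside each other in the same way. After both quantifications were scaled to the same protein-coding genes, 0 of 36 members differed by 1.5-fold or more in both libraries, beside 3.92% of 12766 detected protein-coding genes. Atg4a and Map1lc3b passed that fold in 1 library each, with log2 ratios of the first over the second of 0.57 and 1.09 for Atg4a and of -0.66 and -0.55 for Map1lc3b. Optn did so as well, with -0.33 and -0.77. Over the 36 genes within these libraries, the mean levels of both quantifications had a Spearman correlation of 0.970, a description over genes quantified from the same libraries. The order at the top was kept for Gabarapl1 and Sqstm1, and at the bottom for Atg4a and Atg10.

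The libraries were then compared gene by gene from expected counts. Taking genes as apart where the higher library was at least 25% above the lower, 0 of 36 members were apart between replicate 2 and replicate 1, beside 9.67% of 15509 genes at 1 CPM or more, with 5.13% higher in replicate 2 and 4.54% higher in replicate 1. The share apart was 6.83% of 13336 protein-coding genes and 4.7% of 12480 genes within the members' own range of counts. The log2 ratio of replicate 2 over replicate 1 ranged from -0.29 for Optn to 0.11 for Atg12, with a median of -0.01 and 14 of 36 above 0. Optn, with 302.0 expected counts in replicate 2 and 354.0 in replicate 1, was outside the 5th to 95th percentile of genes of like counts, and the other 35 members were inside it. The authors' TPM intervals of Optn, 5.05 to 6.88 in replicate 2 and 6.23 to 8.01 in replicate 1, overlap. The intervals overlapped for all 36 members, while they were apart for 4.38% of genes. Atg4a had the widest relative gap in TPM, with a coefficient of variation of 19.2%, but a log2 ratio of 0.05 in counts. The median coefficient of variation of TPM was 2.93% over the members and 4.42% over detected protein-coding genes. The part of blood and of the cell types whose markers differed between the libraries in the ratios of the members was not tested.

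**Figure D5:**
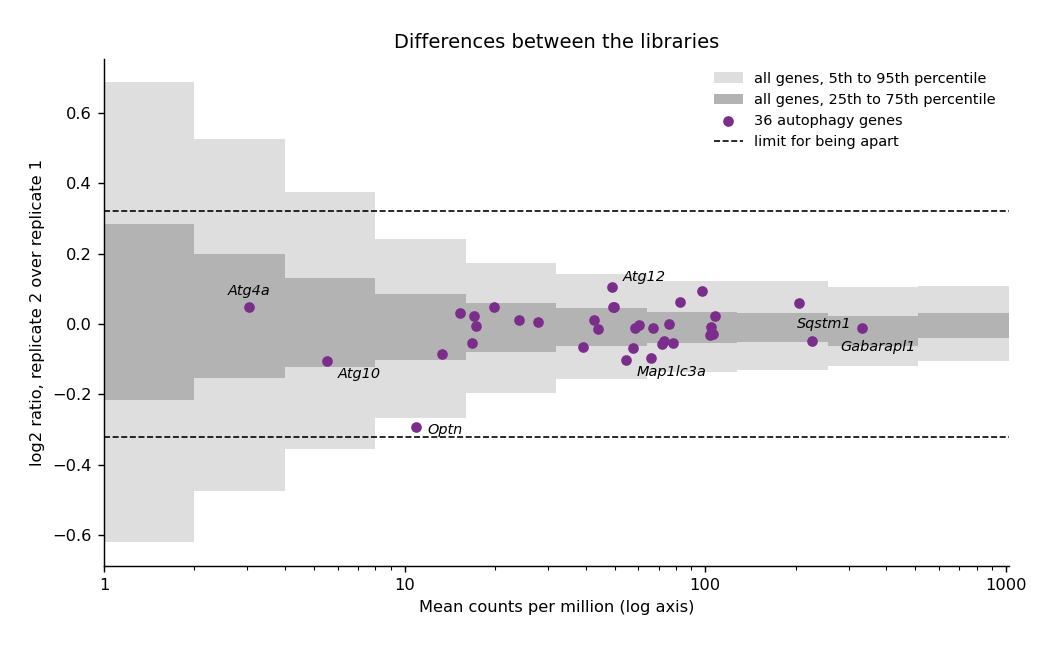
Log2 ratio of replicate 2 over replicate 1 against mean CPM on a log axis for the 36 members (purple); grey bands hold the middle of all genes in bins of counts, and dashed lines mark where the higher library is 25% above the lower, the limit for being apart. All 36 points lie between the dashed lines, and Optn, at -0.29, is the lowest of them.

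A further 81 genes covered the steps before and after the machinery, more of its core and regulatory genes, and other cargo receptors. Of these, 78 were detected, and the others were Tfec, Rubcnl and Calcoco2. The median level of the 81 genes was 22.7 and 23.2 TPM, close to that of the members, and 0 of the 78 genes at 1 CPM or more were apart between the libraries. Among 15 genes of the nutrient and energy kinases, Tsc2, which restrains the growth kinase mTOR, was the highest with 80.2 and 87.1 TPM, ahead of Prkag2, a subunit of the energy sensor AMPK, with 74.9 and 75.5 TPM and the mTOR activator Rheb with 45.4 and 41.5 TPM. The mTOR inhibitor Deptor was the lowest at 2.68 and 2.96 TPM. Of 7 transcription factors linked to autophagy and lysosome genes, Foxo3 had 18.4 and 20.8 TPM, Zkscan3 had 17.6 and 17.0 TPM and Tfe3 had 14.7 and 13.7 TPM. Tfec was near 0, with 0.03 and 0.04 TPM.

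The 3 highest of 16 further core and regulatory genes stood within the range of the members. Tecpr1, which links autophagosomes to lysosomes, had 43.9 and 45.1 TPM. Vmp1, a membrane protein of the endoplasmic reticulum needed for autophagosomes to form, had 45.1 and 43.4 TPM. Trp53inp2, which binds LC3 and GABARAP proteins, had 41.8 and 43.5 TPM, while Rubcnl, a regulator of the lipid kinase complex, had 0.42 and 0.54 TPM. Of 20 other cargo receptors and their regulators, Rtn3, a receptor for tubules of the endoplasmic reticulum, exceeded every member with 290.9 and 286.5 TPM. Fkbp8, a receptor on mitochondria, had 175.9 and 174.6 TPM, and the mitochondrial kinase Pink1 had 100.01 and 95.76 TPM. Calcoco2, known in human cells as the receptor NDP52, was listed at 0 and 0.06 TPM, from 0 and 1.23 expected counts, both under the 3 counts that a count of 0 allows.

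At the fusion step, the late endosome GTPase Rab7 led 13 genes with 123.8 and 119.3 TPM. Vps41 and Vps16, subunits of the tethering complex HOPS, followed with 60.3 and 61.7 TPM and 36.1 and 40.8 TPM. The membrane fusion protein Vamp8 was the lowest at 4.53 and 4.89 TPM. Of 10 lysosomal genes, the proteases Ctsb and Ctsd had 153.4 and 150.2 TPM and 118.5 and 115.8 TPM, the membrane protein Lamp1 had 95.04 and 96.90 TPM, and the ion channel Tpcn2 was the lowest at 3.44 and 3.23 TPM.

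The promoters of the members were searched for the E-box CACGTG, the core of the element that TFEB and its relatives bind, which reads the same on both strands. Promoters here are 250 bases before to 50 after the gene start, from RefSeq on GRCm38.p6, and 29 of 36 members had an entry. The E-box occurred in 4 of 29 members, or 13.8%, namely Atg14, Atg3, Atg5 and Atg7, and in 8.09% of 27025 genes. A gene was counted where any of its promoters held the E-box. The 27025 genes were not limited to protein-coding or detected genes, so the percentages are not like for like. A match in letters describes the sequence and shows no binding.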

How the data were processed

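Total RNA of 2 hippocampus libraries, both of 1 group, was quantified by the authors against mm10 with the M21 annotation, per the notes with the files. Their programs and versions are not stated there. Gene and transcript tables deposited by the authors list expected counts and TPM per feature, with RSEM's columns per the file headers, and are called here the first quantification. A score in the same tables gives the bounds of a TPM interval, as deposited by the authors, and a point value can lie outside it. A further transcript table deposited by the authors lists estimated counts and TPM with kallisto's columns, which were summed here per gene and are called the second quantification. The spike-in label names stranded libraries with reduced ribosomal RNA.

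For ratios between the libraries, 0.5 was added to each expected count, and library sizes were scaled by TMM (edgeR 4.0.16 with limma 3.58.1, R 4.3.3). Genes at 1 CPM or more were compared, and a gene was apart where the higher library was at least 25% above the lower. The usual spread, a coefficient of variation from edgeR's common dispersion on rounded counts with a minimum of 10, was 4.86% over 17782 genes. Pair ratios were taken within a library and called past 3 SD with 1 sign in both. Shares of transcripts are of the gene's TPM. Shared sequence was counted as words of 100 bases, the read length implied by the tables, on the same strand of the M21 transcripts. Overlap, class and transcript sequence come from that annotation, of the build the files use. Tables and plots were made in Python 3.11.15 with pandas 2.3.3, numpy 2.4.6, matplotlib 3.10.9 and scipy 1.17.1, and DESeq2 1.42.0 served for alternatives. The fits were tested on simulated counts.

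The members and lists were chosen with earlier results of these data known. Every member is named. Of the other pathway lists, the 3 highest genes and the lowest by mean TPM are named, with any at 0 counts in both libraries or apart between them. The marker genes Ttr, Cldn5, Flt1 and Pecam1 are named outside that rule, chosen after their values were seen. Alternatives were another scaling, quantification, threshold, filter and pseudocount, and each library left out. With 1 group, no test of conditions was possible.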

Additional observations from a re-analysis of the deposited data

How the results depend on the processing

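The median level of the members was 20.2 TPM as deposited, 50.045 TPM when rescaled to nuclear protein-coding genes, which shifts every log2 level by 1.30 in replicate 1, and 42.9 TPM in the second quantification rescaled in that way. The median percentile was 77.3, with 74.9 in the second quantification and 77.27 to 77.34 with a library left out. The spread between the libraries was 4.86% with edgeR and 10.9% with DESeq2 dispersions. The median coding share was 82.2% of TPM, 93.4% of expected counts and 79.3% in the second quantification. With a library left out, 1 to 2 members in place of 0 differed by 1.5-fold or more between the quantifications. The pair Map1lc3a over Map1lc3b reversed, to -0.13 in the second quantification. The cause of these shifts was not tested. The count of members apart between the libraries was also 0 with DESeq2 size factors, library totals, a pseudocount of 2, the second quantification and non-overlapping intervals. The higher folds and the other filters could not raise it. No paired analysis was possible because there is only 1 group. With 2 libraries and a shared donor record, the SDs are rough and cover few sources of variation. Atg4a, Atg10 and Optn have the fewest reads, which limits their precision. Transcript shares depend on the annotated models and on how reads are divided among overlapping transcripts.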
